A study of Mus musculus with 8 samples.

Results

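Complement is a cascade of plasma and tissue proteins that tags particles and cells for removal and draws in leukocytes. The classical pathway starts when C1q, built from the chains encoded by C1qa, C1qb and C1qc, binds its target and turns on the proteases C1r and C1s. C1s cuts C4 and C2, and the cascade then meets the alternative pathway at C3. Fragments of C3 and C5 signal through the receptors C3aR and C5aR1, and C1 inhibitor, encoded by Serping1, blocks C1r and C1s. In many tissues C1q is made mainly by macrophages, and C1ra, C3, C4b and Serping1 are also made by stromal cells.

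The genes described here were 9 complement genes chosen by name: C1qa, C1qb, C1qc, C1ra and C4b of the classical pathway, the central component C3, the inhibitor Serping1, and the receptors C3ar1 and C5ar1. They were 9 of 46040 genes in the table of raw read counts, and all 9 were among the 13542 genes that passed the filter on low counts (1 CPM, a count scaled to the library total, or more in 2 libraries or more).

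The RNA came from left ventricles (LVs) of male C57BL/6 mice aged 5 to 7 months that had received angiotensin II (angII) at 0.1 mg/kg/h from an osmotic minipump and were alive on day 14. One group was VEGFR-1 TK-/- mice, in which the receptor encoded by Flt1 lacks its intracellular tyrosine kinase domain in every cell type, and the other was littermate controls. There were 4 libraries in each group. All mice received angII, so the comparison shows genotype under angII and not the response to angII. The submitters' labels did not agree: the library names and genotype tags gave one assignment, and the sample titles gave the opposite one. Libraries were grouped by their names, as WT2 (control) and dVEGFR1TK2 (VEGFR-1 TK-/-), and every difference below changes sign if the titles are right. Flt1 itself was at 69.3 ± 11.3 normalized CPM in WT2 and 158 ± 13.2 in dVEGFR1TK2 libraries (SD, n = 4 each), but the count also covers exons outside the kinase part and does not settle which label is right. Library names call the material cardiomyocyte while the source is given as LV, and the libraries held cardiomyocyte markers together with fibroblast, endothelial and macrophage markers.

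Totals were 11449137 to 16239670 counts per library. Levels are given below as CPM (counts scaled to a library total of 1e6) after TMM scaling (trimmed mean of M-values), and fold changes as log2 of dVEGFR1TK2 over WT2 from edgeR's quasi-likelihood test. A gene was called changed where its Benjamini-Hochberg adjusted p (FDR) was under 0.1 and it differed 1.5-fold or more in either direction. In such bulk tissue, fewer cells of a type and less RNA per cell cannot be told apart.

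None of the 9 genes was called changed (0 of 9, beside 0.00738% of all genes tested, which was Flt1 alone). The likelihood ratio test called 0 of 9 (0.391% of all genes) and DESeq2 called 0 of 9 (0.293%). No member had an unadjusted p under 0.05 in the quasi-likelihood test, where 8.96% of all genes did, and 1 member did in the likelihood ratio test (C1qb). For no member were the groups free of overlap, a state found for 4.98% of all genes (2.53% with the dVEGFR1TK2 libraries lower). All 9 log2 fold changes were below 0, with a median of -0.12, while 50.3% of all genes were below 0 with a median of -0.00. This common sign rested on single libraries, since 5 of 9 were below 0 without WT2 replicate 2 and 5 of 9 without dVEGFR1TK2 replicate 3.

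The promoters of 6 of the 9 genes were held by the RefSeq promoter table used here (GRCm38.p6). The first 250 bases before the start are shown for C1qb, the most abundant C1q chain, and for C3, which varied most among the highly expressed members, because each holds a match to a motif of a factor known in myeloid cells or in the acute phase. The motif GAGGAA, the core bound by PU.1, and TTGCNNAA, a C/EBP motif, were chosen after these sequences had been seen. Capitals mark the match. The C1qb stretch is chr4:136886201-136886450 and the C3 stretch is chr17:57228137-57228386, both on the minus strand and printed in the direction of the gene.
C1qb: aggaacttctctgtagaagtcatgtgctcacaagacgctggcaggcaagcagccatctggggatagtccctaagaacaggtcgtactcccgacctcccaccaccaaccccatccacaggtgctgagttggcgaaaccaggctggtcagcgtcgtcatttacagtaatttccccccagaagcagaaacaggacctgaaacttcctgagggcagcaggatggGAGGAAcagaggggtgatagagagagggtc
C3: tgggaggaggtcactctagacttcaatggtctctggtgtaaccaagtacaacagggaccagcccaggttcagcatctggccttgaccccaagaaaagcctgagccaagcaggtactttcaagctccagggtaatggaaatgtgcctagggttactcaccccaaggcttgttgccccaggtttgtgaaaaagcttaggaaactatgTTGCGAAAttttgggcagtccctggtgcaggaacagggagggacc
The C1qb match starts 30 bases and the C3 match 45 bases before the start that RefSeq gives, which for C1qb lies just outside the GENCODE gene bounds given below. On either strand and in the full windows of 300 bases, GAGGAA was found for C1qb, C1qc and C1ra and in 28.3% of all 32851 promoters. TTGCNNAA was found for C3 and C1ra and in 10.8% of promoters. The interferon response motif (GAAA, any 2 bases, GAAA) was in none of the 6 windows and in 3.44% of promoters. A match is a description of the sequence only.

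Per kilobase of exon, the 9 genes covered a wide range of levels. C1qb was highest among them, at a mean of 84.3 normalized CPM per kb over the 8 libraries, followed by Serping1 at 66.5, C3 at 57.5 and C1qa at 55.7. C1qc was at 32.4, and the lower levels were C4b at 9.97, C1ra at 8.60, C5ar1 at 3.87 and C3ar1 at 1.81 CPM per kb. C1qb was above Serping1 in 8 of 8 libraries, although in 1 of them the ratio was 1.00. Serping1 was above C3 in 6 of 8 libraries and C3 above C1qa in 4 of 8, so these neighbours did not differ beyond the spread between libraries. C4b was above C1ra in 6 of 8. The other neighbours in the order (C1qa over C1qc, C1qc over C4b, C1ra over C5ar1, and C5ar1 over C3ar1) kept it in 8 of 8. For C1qa and C1qc the order came from the exon lengths used, 1040 and 1931 bases, which count every annotated exon. Before division by length their means were 57.9 and 62.6 normalized CPM. Clu, an inhibitor of the terminal complex with other functions outside complement, was the highest of the wider complement list at 398 CPM per kb.

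**Figure D1:**
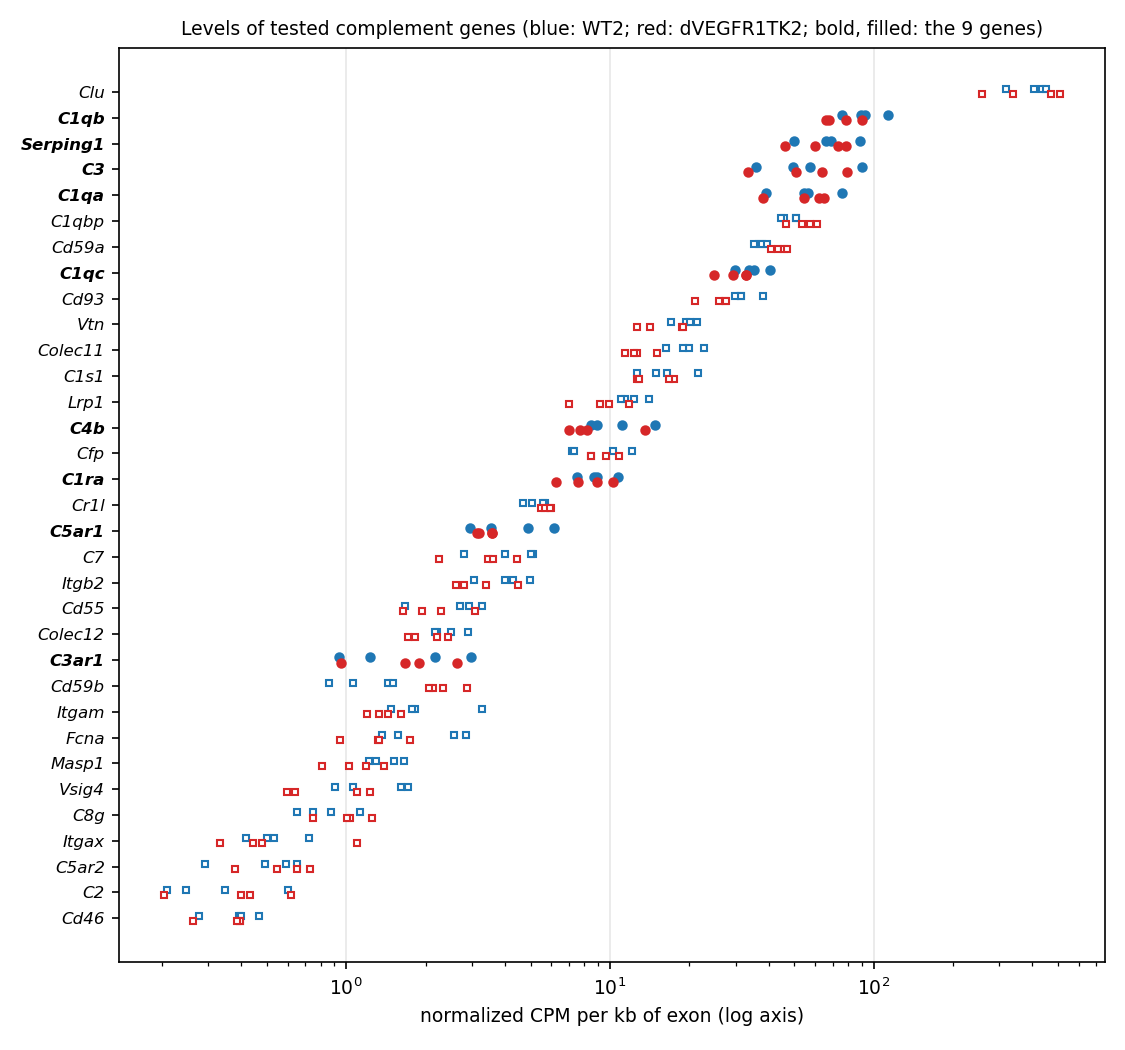
Normalized CPM per kb of exon (log axis) for each tested complement gene, with 1 point per library (blue, WT2; red, dVEGFR1TK2; filled points and bold names, the 9 genes; open squares, the others). Levels ran from below 1 for C2 and Cd46 to 398 for Clu, with C1qb the highest of the 9 genes.

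The C1q genes lie next to each other on chromosome 4 (GRCm38, minus strand). C1qb (136880129 to 136886187) was at 100.7, 97.0, 123.6 and 82.8 normalized CPM in WT2 libraries 1 to 4 and at 98.1, 73.9, 72.0 and 85.2 in dVEGFR1TK2 libraries 1 to 4. WT2 library 3 was highest, and dVEGFR1TK2 libraries 1 and 4 lay above WT2 library 4, so the groups overlapped. The means were 101 ± 16.9 and 82.3 ± 12.0 (SD, n = 4 each), a log2 fold change of -0.30 (SE 0.14, 95% interval -0.59 to 0.00), and edgeR's quasi-likelihood test gave an FDR of 0.556. The exact permutation test, two-sided, gave p = 0.171. C1qb was the member with the lowest p in the edgeR test, and its interval just reached 0.

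C1qc (136889804 to 136893065) was at 64.9, 78.4, 57.8 and 68.0 normalized CPM in WT2 and 63.4, 56.5, 48.1 and 63.5 in dVEGFR1TK2 libraries. Only WT2 library 3 kept the groups from lying apart, and without it they did (7.27% of all genes lay apart in that setting). The log2 fold change was -0.22 (SE 0.12, edgeR FDR 0.618). C1qa (136895917 to 136898803) was at 56.7, 79.0, 40.6 and 58.7 in WT2 and 67.7, 56.5, 39.4 and 64.5 in dVEGFR1TK2 libraries. Its groups covered nearly the same range, with library 3 the lowest of each group and WT2 library 2 the highest of all. The difference was -0.04 on the log2 scale (SE 0.20, 95% interval -0.48 to 0.40, edgeR FDR 0.968), and it was 0.13 without WT2 replicate 2 and 0.10 without dVEGFR1TK2 replicate 3.

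The 3 chains form 1 protein, but their transcripts did not keep a fixed proportion. The ratio of C1qb to C1qa was 3.04 in WT2 library 3, the highest, and between 1.23 and 1.83 in the other libraries. The ratio of C1qc to C1qa stayed between 0.936 and 1.42. These within-library ratios were chosen after the values had been seen.

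C1ra, which encodes the protease C1r (chromosome 6, 124512405 to 124523443, plus strand), was at 26.0, 31.9, 22.4 and 26.6 normalized CPM in WT2 and 30.6, 22.5, 18.6 and 26.5 in dVEGFR1TK2 libraries. The groups overlapped across most of their range, and the log2 fold change was -0.12 (SE 0.16, edgeR FDR 0.848). The near-identical gene C1rb had 0 counts in all 8 libraries, which allows up to 3 counts in each. How the counting treated reads that fit both copies was not stated, so C1ra is uncertain to that extent. C1s1, the partner protease C1s, stood in a close proportion to C1ra, with a ratio of C1ra to C1s1 of 0.462 to 0.568 over all libraries.

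C4b, which encodes C4 (chromosome 17, 34728380 to 34743882, minus strand), was at 63.4, 84.3, 50.7 and 48.1 normalized CPM in WT2 and 77.4, 46.5, 39.9 and 43.9 in dVEGFR1TK2 libraries. WT2 library 2 and dVEGFR1TK2 library 1 were the high ones, and the groups overlapped through the latter. The log2 fold change was -0.25 (SE 0.22, edgeR FDR 0.767). Leaving out 1 library at a time moved it from -0.51 (without dVEGFR1TK2 replicate 1) to -0.059 (without WT2 replicate 2). Without dVEGFR1TK2 replicate 1 the groups lay apart, as did 9.03% of all genes in that setting. The near-identical C4a had 6 to 16 counts per library and did not pass the filter, and shared reads could have been split between both genes.

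**Figure D2:**
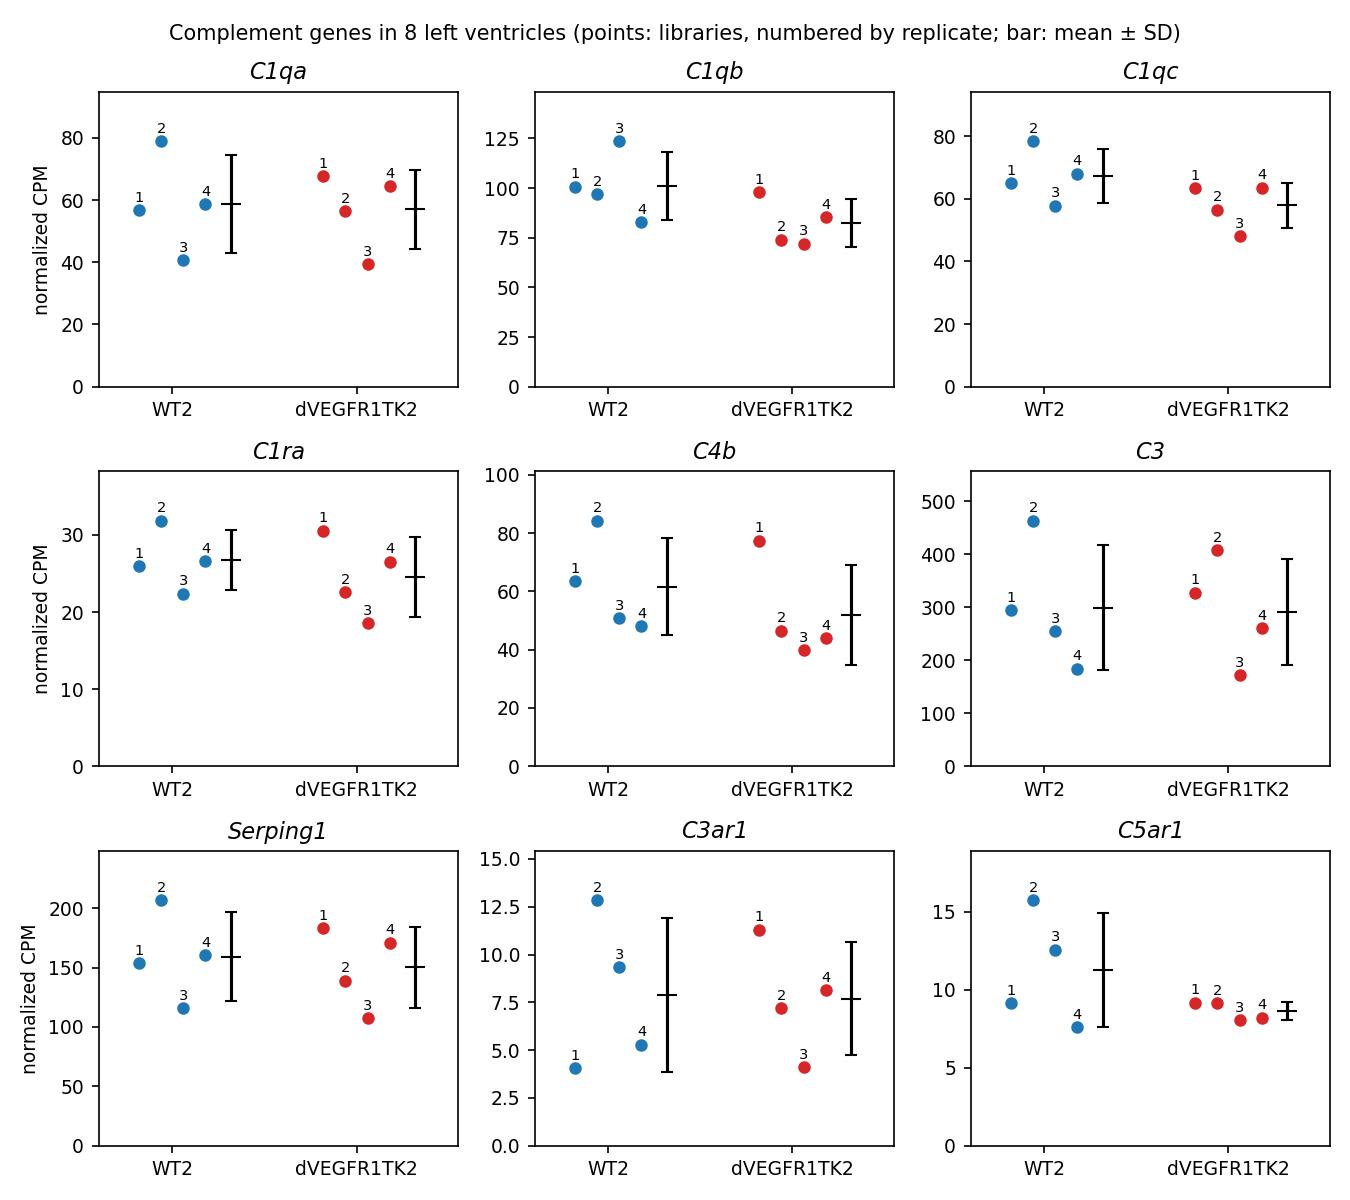
Normalized CPM of the 9 genes in WT2 (blue) and dVEGFR1TK2 (red) libraries, each point a library with its replicate number, and the bar the mean ± SD of 4 libraries. The groups overlapped for every gene, and library 2 was the highest of the WT2 group for every gene but C1qb.

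C3 (chromosome 17, 57203970 to 57228136, minus strand) had the widest spread of the highly expressed members. It was at 295, 464, 255 and 184 normalized CPM in WT2 and 327, 407, 171 and 260 in dVEGFR1TK2 libraries. The highest and lowest library differed 2.70-fold, and the highest and the lowest of each group came close to those of the other. The means were 299 ± 119 and 292 ± 100.2 (SD, n = 4 each), a log2 fold change of -0.04 (SE 0.29, 95% interval -0.66 to 0.59, edgeR FDR 0.979). It was 0.25 without WT2 replicate 2, 0.14 without dVEGFR1TK2 replicate 3 and 0.01 without dVEGFR1TK2 replicate 4. The within-group SD of C3 on the log2 scale was at the 94.3 percentile of all genes tested. The highest C3 libraries of each group, replicate 2 in both, were also the highest in the sum of mesothelium markers, which ran from 17.4 to 63.5 CPM in WT2 and from 18.4 to 62.3 in dVEGFR1TK2 libraries. Over the 8 libraries C3 and that sum had r = 0.62 (exact permutation adjusted p = 0.196 over 45 relations), rho = 0.62 (adjusted p = 0.425), and r = 0.49 without the 2 farthest libraries. The part of mesothelium in the C3 values was not tested. Hepatocyte markers, of which 0 of 6 passed the filter, summed to 0.325 to 0.888 CPM.

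Serping1, encoding C1 inhibitor (chromosome 2, 84765387 to 84775444, minus strand), was at 154, 207, 116 and 160.2 normalized CPM in WT2 and 183, 139, 107 and 171 in dVEGFR1TK2 libraries. Library 3 was the lowest of each group, and the groups overlapped nearly completely. The log2 fold change was -0.08 (SE 0.19, 95% interval -0.50 to 0.33, edgeR FDR 0.924), and it was 0.07 without WT2 replicate 2 and 0.04 without dVEGFR1TK2 replicate 3.

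The receptors were the least abundant members. C5ar1, the receptor for C5a on myeloid cells (chromosome 7, 16246743 to 16259540, minus strand), was at 9.13, 15.8, 12.6 and 7.60 normalized CPM in WT2 and 9.18, 9.14, 8.06 and 8.21 in dVEGFR1TK2 libraries. The WT2 libraries were spread widely, while the dVEGFR1TK2 libraries lay together inside the WT2 range. The difference of -0.38 on the log2 scale (SE 0.21, 95% interval -0.83 to 0.06, edgeR FDR 0.612) was the largest of the 9 genes, but without WT2 replicate 2 it was -0.18, smaller than that of C1qb (-0.32). Over the 8 libraries left out in turn it ran from -0.53 to -0.18. C3ar1, the receptor for C3a (chromosome 6, 122847138 to 122856161, minus strand), was at 4.04, 12.8, 9.35 and 5.28 in WT2 and 11.3, 7.19, 4.11 and 8.13 in dVEGFR1TK2 libraries. With 52 to 177 counts per library it was the most scattered member, at the 97.4 percentile of within-group SD. Its log2 fold change of -0.04 (SE 0.36, 95% interval -0.83 to 0.74, edgeR FDR 0.981) had the widest interval of the 9 genes, and it was 0.29 without WT2 replicate 2, 0.05 without WT2 replicate 3 and 0.16 without dVEGFR1TK2 replicate 3.

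Across the libraries, several members were high and low together in both groups. C1qa and Serping1 put the 8 libraries in the same order, from WT2 library 2 at the top to dVEGFR1TK2 library 3 at the bottom, and Serping1 stayed between 2.46 and 2.85 times C1qa. This was noticed first and then tested among the 36 pairs of members by exact permutation, two-sided. For C1qa and Serping1, r was 0.99 (p = 2.48e-05, the smallest the permutations can give, adjusted p = 0.000893) and rho was 1.00 (p = 4.96e-05, adjusted p = 0.00179). Leaving out the 2 libraries farthest from the C1qa median gave r = 0.96, and centring each group gave r = 0.99. Among all 13541 other genes tested, Serping1 ranked 2 by its r with C1qa, and 0.990% of genes reached an r of 0.9. C1ra went with Serping1 (r = 0.96, exact permutation adjusted p = 0.00134; rho = 0.98, adjusted p = 0.00476; r = 0.91 without the 2 farthest libraries). C1qb and C1qa had r = 0.02 over all 8 libraries (rho = 0.24) and r = 0.48 without the 2 libraries farthest from the C1qa median, so this low value rests on single libraries.

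Summed markers of some of the cell types that the LV holds also varied along these libraries, with 7 of 45 relations between a member and a marker sum under an adjusted p of 0.05 by r and 0 by rho. The sum of 7 cardiomyocyte markers was lowest in WT2 library 2 and highest in dVEGFR1TK2 library 3, the reverse of C1qa (r = -0.87, exact permutation adjusted p = 0.0310 over 45 relations; rho = -0.83, adjusted p = 0.0989; r = -0.85 without the 2 farthest libraries). The sum of 10 fibroblast markers went with C1ra (r = 0.93, exact permutation adjusted p = 0.0310; rho = 0.88, adjusted p = 0.0815; r = 0.76 without the 2 farthest libraries) and with Serping1 (r = 0.85, exact permutation adjusted p = 0.0378; rho = 0.90, adjusted p = 0.0815; r = 0.89 without the 2 farthest libraries). Serping1 ran against the cardiomyocyte sum (r = -0.87, exact permutation adjusted p = 0.0310; r = -0.79 without the 2 farthest libraries). The other 3 were those of C1qc with the fibroblast (r = 0.91), cardiomyocyte (r = -0.92) and macrophage sums (r = 0.90), and these rested in part on the 2 farthest libraries, without which r was 0.62, -0.60 and 0.37. The macrophage sum and C1qa had r = 0.62 (exact permutation adjusted p = 0.196), and r = 0.81 without the 2 farthest libraries. The endothelial sum had r = 0.12 with C1qa and 0.23 with Serping1. Without the 2 farthest libraries these were 0.64 and 0.71, so the low values rested in part on those libraries. These relations were also chosen after the values had been seen, points share a library and its scaling, and the part of tissue makeup in the complement values was not tested. The sums are plain totals, in which abundant genes weigh most. In WT2 library 1, Col3a1 made up 638 of 2341 CPM of the fibroblast sum. There, Lyz2 made up 225 of 488 CPM of the macrophage sum and Myh6 29386 of 65504 CPM of the cardiomyocyte sum. Between the groups, the macrophage markers summed to 488 to 641 CPM in WT2 and 327 to 490 in dVEGFR1TK2 libraries, with 16 of 16 log2 fold changes below 0 (median -0.31) and 0 called. The fibroblast markers were below 0 for 10 of 10 (median -0.27) and the red blood cell markers for 5 of 5 (median -0.37), with 0 called. Their sums overlapped between the groups. The fibroblast sum was 1886 to 2997 CPM in WT2 and 941 to 2404 in dVEGFR1TK2 libraries. The red blood cell sum was 309 to 766 CPM in WT2 and 359 to 601 in dVEGFR1TK2 libraries. The endothelial markers summed to 1138 to 1455 CPM in WT2 and 1034 to 1181 in dVEGFR1TK2 libraries, with 0 called. An unadjusted p under 0.05 (quasi-likelihood test) was reached by 2 of 16 macrophage, 1 of 10 fibroblast and 3 of 6 endothelial markers. All of these were lower, beside 5.64% of all genes. No marker of these lists had groups free of overlap. The cardiomyocyte markers were above 0 for 6 of 7 (median 0.19), with 0 called. Of the 7, 2 were higher at an unadjusted p under 0.05 (quasi-likelihood test), beside 3.32% of all genes. For 1 of the 7 the groups lay apart, with dVEGFR1TK2 libraries higher, beside 2.46% of all genes.

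**Figure D3:**
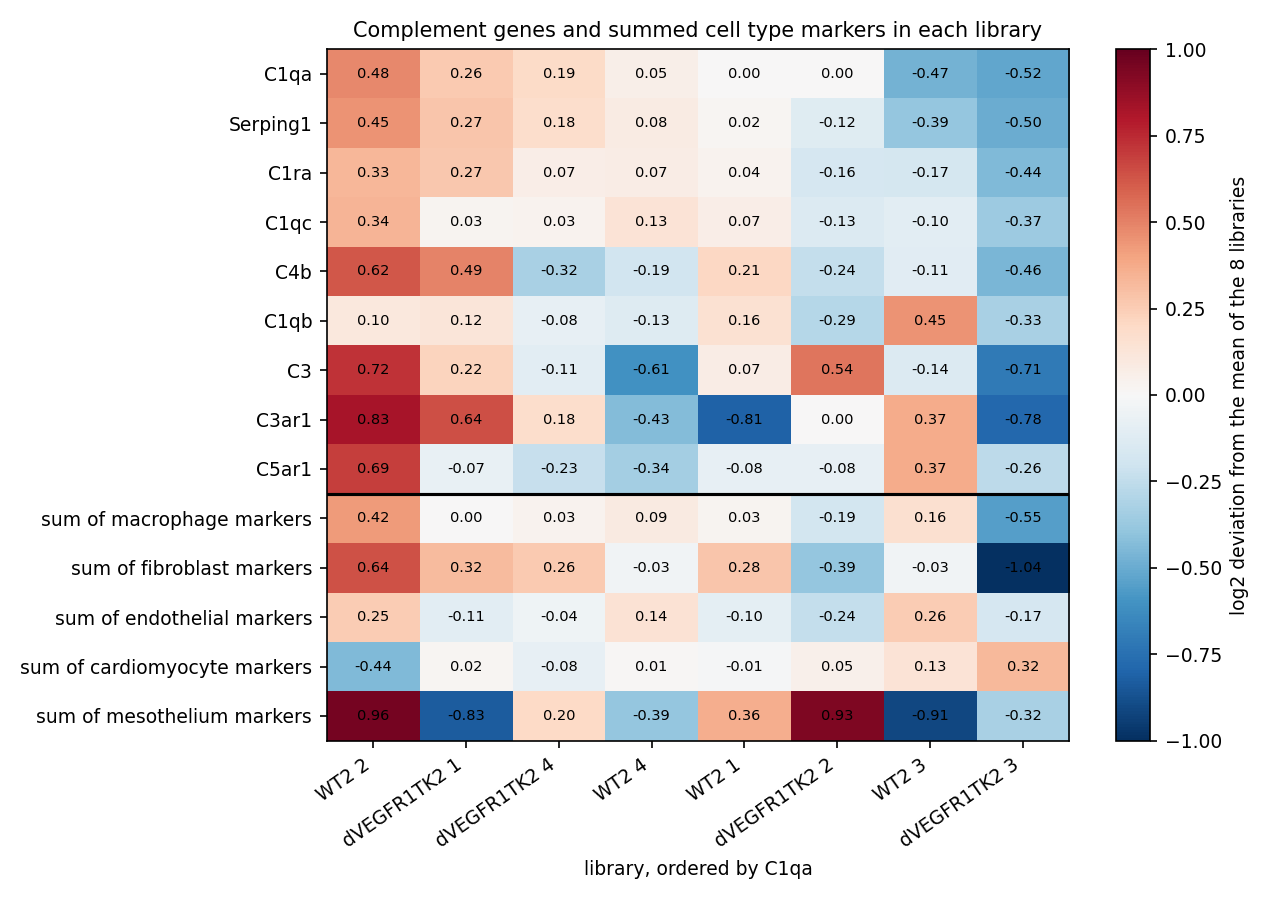
Log2 deviation from the mean of the 8 libraries for the 9 genes (above the line) and for summed markers of 5 cell types (below it), with libraries ordered by C1qa. C1qa, Serping1 and C1ra run from high to low together, and the cardiomyocyte markers run from -0.44 in WT2 library 2 to 0.32 in dVEGFR1TK2 library 3.

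The wider complement system was followed with a list of 56 genes found in the table, of which 33 passed the filter and 8 had no count in any library. Of the 33, 24 had a log2 fold change below 0 (median -0.14), beside 50.3% of all genes, and 0 were called by edgeR's quasi-likelihood test. The 33 include the 9 genes above, all below 0. Among the 24 others, 15 were below 0 (median -0.19). An unadjusted p under 0.05 was reached by 6 of the 33, 4 lower and 2 higher, beside 5.64% of all genes lower and 3.32% higher. For 4 of the 33 the groups did not overlap, 2 lower and 2 higher, beside 2.53% of all genes lower and 2.46% higher. By role, with the 9 genes counted, the lectin pathway had 4 of 4 tested genes below 0, the classical pathway 6 of 7 and the regulators 6 of 9. The receptors had 6 of 9, the terminal components 1 of 2 and the alternative pathway with C3 1 of 2. Without the 9 genes, the classical pathway had 1 of 2 below 0 and the regulators 5 of 8. The receptors then had 4 of 7 and the alternative pathway 0 of 1.

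Among the other genes, Colec11, a soluble lectin that starts the lectin pathway, had the lowest p. It was at 26.4, 36.9, 32.4 and 30.7 normalized CPM in WT2 and at 24.5, 18.5, 20.6 and 20.1 in dVEGFR1TK2 libraries, and every dVEGFR1TK2 library lay below every WT2 library. On the log2 scale it differed by -0.60 (SE 0.12), and the FDR was 0.442 in edgeR's quasi-likelihood test, 0.0186 in the likelihood ratio test and 0.0223 in DESeq2, so the call depends on the test. Colec12, a membrane lectin of the same family, had a log2 fold change of -0.25 (SE 0.14, edgeR FDR 0.621). Cd59b, a regulator that blocks the membrane attack complex, was at 1.58 ± 0.398 in WT2 and 3.05 ± 0.475 normalized CPM in dVEGFR1TK2 libraries (SD, n = 4 each), without overlap. Its log2 fold change was 0.94 (SE 0.24), with an edgeR FDR of 0.442 in the quasi-likelihood test and 0.0744 in the likelihood ratio test, from 14 to 42 counts per library. Its paralog Cd59a was at 67.7 ± 3.23 and 80.1 ± 4.96, also without overlap (log2 fold change 0.24, SE 0.08, edgeR FDR 0.468), and the 2 genes may share reads.

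The remaining genes with an unadjusted p under 0.05 were receptors. Cd93, an endothelial and myeloid receptor once proposed to bind C1q, was at 218 ± 25.1 in WT2 and 170.2 ± 20.1 normalized CPM in dVEGFR1TK2 libraries (SD, n = 4 each), without overlap (log2 fold change -0.36, SE 0.12, edgeR FDR 0.464). Itgam, a chain of complement receptor 3, had a log2 fold change of -0.58 (SE 0.23, edgeR FDR 0.521), and Lrp1, a scavenger receptor that takes up complement complexes, of -0.36 (SE 0.15, edgeR FDR 0.521). The groups overlapped for both. Without WT2 replicate 2 the Itgam difference was -0.27, and both genes had an unadjusted p above 0.05 without WT2 replicate 2, dVEGFR1TK2 replicate 2 or dVEGFR1TK2 replicate 3. The endothelial markers, in which Cd93 was not counted, were below 0 for 5 of 6 (median -0.27).

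**Figure D4:**
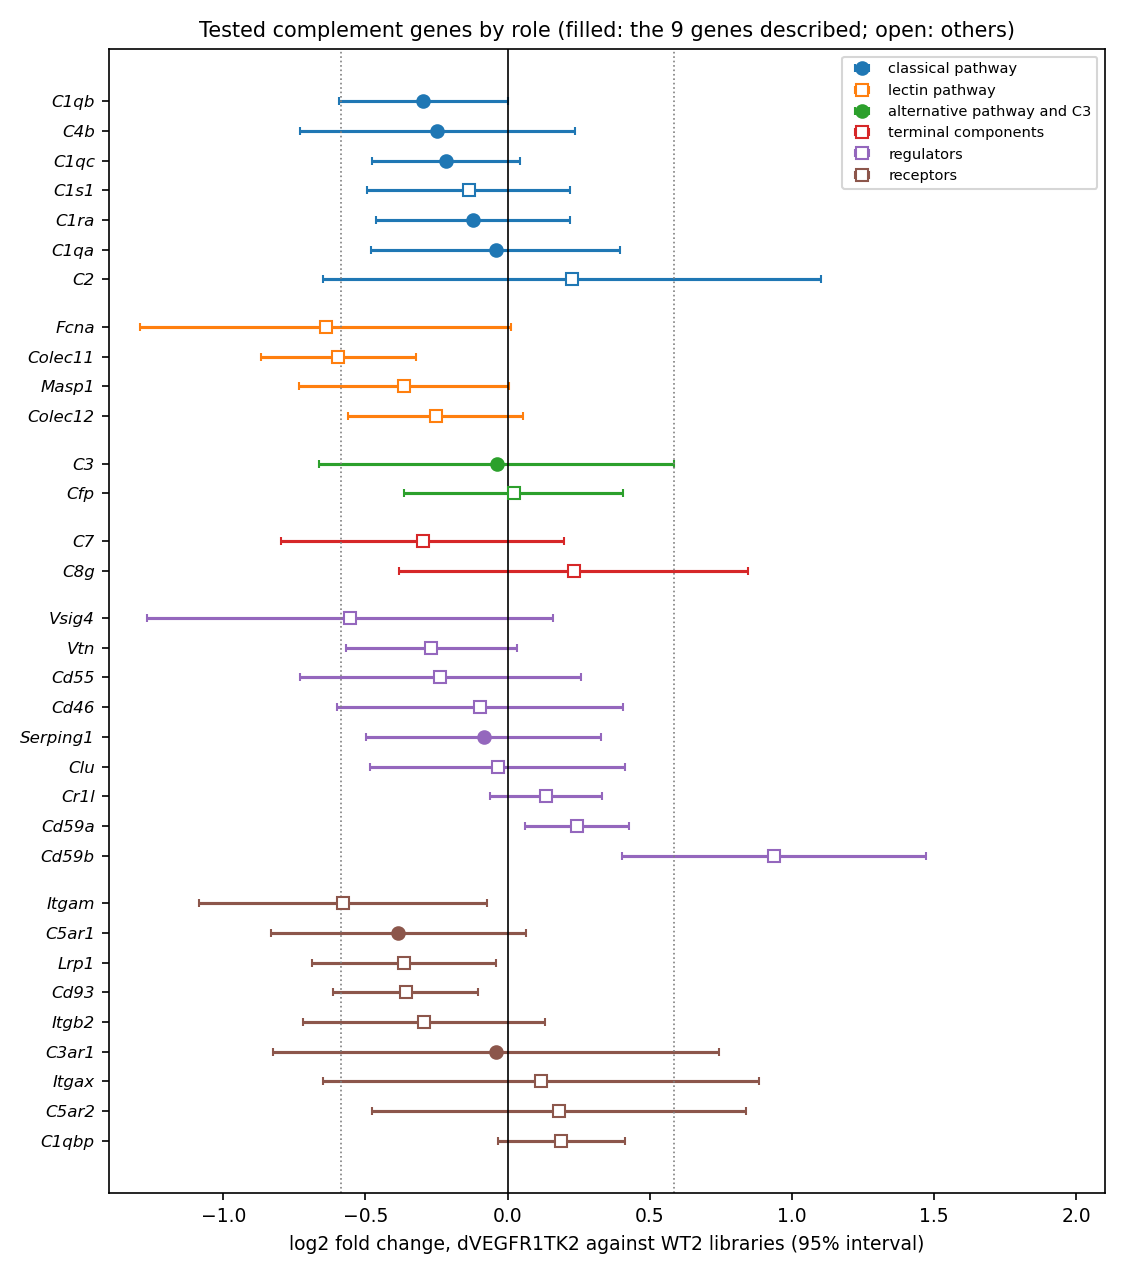
Log2 fold change of dVEGFR1TK2 against WT2 libraries with its 95% interval for the 33 tested complement genes by role (filled circles, the 9 genes; open squares, the others; dotted lines, 1.5-fold in either direction). All 9 filled points lie left of 0 with intervals that reach 0, and Colec11, Itgam, Lrp1 and Cd93 on the left and Cd59a and Cd59b on the right have intervals clear of 0.

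The other genes of the classical, alternative and terminal steps did not pass the test. C1s1 had a log2 fold change of -0.14, C2 of 0.23, Cfp (properdin, which stabilizes the alternative convertase) of 0.02, C7 of -0.30, C8g of 0.23 and Clu of -0.03. Cfd, the adipocyte-rich protease factor D, had 0 counts in 6 libraries and was at 1.35 and 0.640 normalized CPM in WT2 libraries 3 and 4, and it was not tested. Adipocyte markers also did not pass the filter (0 of 4).

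By profile over the 8 libraries, the genes most like C1qa outside the complement list were Stk26 (r = 0.996), Klhl20 (r = 0.980) and Itgb3 (r = 0.974). Those most like C4b were Pyhin1 (r = 0.986), Txlna (r = 0.984) and Ifi203 (r = 0.971), and those most like C3 were led by Spsb2 (r = 0.950). Again outside the list, Stk26 was the most like Serping1 (r = 0.982), before Camkk2 (r = 0.976), and Gpsm2 was the most like C3ar1 (r = 0.969). Stk26 and Gpsm2 were low, at 0.316 to 1.96 and 0.948 to 3.19 normalized CPM. These are the highest r values among the genes tested outside the complement list, given as a description, with no test.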

How the data were processed

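RNA of 8 angII-treated LVs was sequenced, 4 libraries per group. The deposited values are raw read counts per gene that the authors made from trimmed reads (Trim Galore 0.4.4) aligned with STAR 2.5.4b to mouse genome GRCm38 and counted with featureCounts against GENCODE annotation, per the labels and the study's methods. The strand setting and the handling of reads that fit several genes are not given in the sources used here. The labels and the methods differ on whether ribosomal depletion or poly-A selection was used, which could affect levels.

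From these counts, edgeR 4.0.16 (R 4.3.3) was run with TMM scaling and the quasi-likelihood test over the 13542 genes that reached 1 CPM in 2 or more libraries. The study's likelihood ratio test and DESeq2 1.42.0 were alternatives. The tests were checked on simulated data. P-values of the group comparisons set the difference against the spread between these 4 libraries per group, which edgeR moderates with the other genes. With 4 against 4 the smallest exact permutation p of a group comparison is 0.0286. Relations between genes or marker sums were permuted over all 8 libraries. Levels per kb used exon lengths from GENCODE (GRCm38). The control group is WT2 and the VEGFR-1 TK-/- group dVEGFR1TK2. Normalized CPM are the counts divided by TMM-scaled totals. The replicate numbers were not taken to pair the samples. Libraries within a group differed by more than sampling noise, so none was the same library sequenced again. Whether any came from the same animal was not tested.

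Named genes were the 9 members, other complement genes with an unadjusted p under 0.05, the 2 others of highest CPM in each role, the paralogs C4a and C1rb, and genes of the most similar profile. The members, gene lists and tests were chosen with earlier results of these data known. The member pairs, marker relations, ratios and motifs were added after values or sequences had been seen. Marker lists for neutrophils, lymphocytes, red blood cells and atrium gave 0 called genes, as did the other lists. One gene of the complement list is not reported here and was left out of the list's counts.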

Additional observations from a re-analysis of the deposited data

How the results depend on the processing

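No alternative called any of the 9 complement genes, and their lowest FDR over all alternatives was 0.486. The direction of C1qb, C1qc, C1ra, C4b and C5ar1 was kept under every alternative but the grouping by titles (over single libraries left out, C4b ran from -0.51 to -0.059 and C5ar1 from -0.53 to -0.18), while that of C1qa, C3, Serping1 and C3ar1 turned when 1 library was left out. Leaving out 1 library at a time gave log2 fold changes of -0.19 to 0.13 for C1qa, -0.25 to 0.25 for C3, -0.21 to 0.068 for Serping1, -0.29 to 0.29 for C3ar1, -0.25 to 0.021 for C1s1, -0.029 to 0.62 for C2, -0.088 to 0.18 for Cfp and -0.18 to 0.12 for Clu. It gave 0 to 1 of the 9 genes with groups apart, beside 6.34% to 10.3% of all genes, and 1 to 3 genes called among all. With total counts as scaling, Cfp was at -0.0082. The likelihood ratio test called 53 of all genes and 2 of the complement list (Colec11, Cd59b), DESeq2 called 32 and 1 (Colec11), and no filter on low counts called 23 and 1 (Colec11), where the main test called 1 and 0; the cause was not tested. Grouping by sample title reversed every sign at the same size: C1qa 0.042, C1qb 0.30, C1qc 0.22, C1ra 0.12, C4b 0.25, C3 0.038, Serping1 0.084, C3ar1 0.042, C5ar1 0.38, Colec11 0.60, Itgam 0.58, Cd93 0.36, Lrp1 0.36, C1s1 0.14, Colec12 0.25, C7 0.30, Clu 0.034, Cd59a -0.24, Cd59b -0.94, C2 -0.23, Cfp -0.021, C8g -0.23 and Flt1 -1.19. With the replicate number as a block, 0 of the 9 genes and 1 of all genes were called. Same-numbered libraries correlated at -0.03, 0.03, 0.34 and -0.06 in their deviations from the group means. Only replicate 3 went best with its own number. These correlations cannot exclude a shared litter or batch, and the main test treated the libraries as unpaired. C3ar1, at 52 to 177 counts per library, is the member that depth limits most. The limit beside a count of 0 covers counting error only.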
